A study of Homo sapiens with 32 samples.

Results

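Raltitrexed (RTX) regions absent after 5-fluoro-2′-deoxyuridine (5FdUR) treatment are described here. They are stretches of uracil-enriched DNA found in both lines of RTX-treated HCT116 cells and in neither line of 5FdUR-treated cells. A base was taken when it lay in both merged RTX region files and in neither merged 5FdUR file, and adjacent bases on chromosomes 1 to 22 were joined to intervals of at least 1 kb. This gave 30855 RTX-only regions spanning 151 Mb, or 5.49% of the known autosomal bases. For comparison, bases in any of the 7 merged HCT116 files or the K562 file joined into 271338 regions that covered 56.8% of the autosomes. The reverse rule gave 26385 5FdUR-only regions of 119 Mb, and bases in all 4 merged drug files gave 12882 all-drug regions of 45.6 Mb. Members were thus chosen by the measured regions of the drug-treated cells, and the values of the drug-treated libraries at the RTX-only regions are given as a description with no test.

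HCT116 is a human colorectal carcinoma line deficient in mismatch repair (MMR), and its sub-line with an added chromosome 3 carries wild-type hMLH1 and is MMR proficient. Both lines stably expressed UGI, a phage protein that inhibits the uracil-DNA glycosylase UNG, together with EGFP from a retroviral vector, and fluorescent cells were sorted. They were left non-treated (NT_UGI and NT_UGI_MMR) or received 20 µM 5FdUR (5FdUR_UGI and 5FdUR_UGI_MMR) or 100 nM RTX (RTX_UGI and RTX_UGI_MMR) for 48 h, where MMR marks the proficient line. WT denotes HCT116 cells with neither UGI nor drug. The paper also expressed UGI in HCT116 cells by transient transfection, and the sample titles do not tell such cells from the stable line. Each of these 7 conditions had 2 biological replicates, and 1 further library came from untreated K562 erythroleukaemia cells. Inhibition of UNG is thus common to every drug-treated group and to the NT_UGI controls, while the WT and K562 cells lack it. DNA was enriched with a catalytically inactive UNG sensor and compared with input DNA, so that a region is a stretch where the smoothed log2 ratio of enriched to input coverage passed a threshold set for its file.

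Thymidylate synthase supplies the cell with dTMP made from dUMP. RTX, a folate analogue, inhibits this enzyme directly, whereas 5FdUR is a nucleoside that is phosphorylated to an inhibitor of the same enzyme and can itself enter DNA. The authors state that their method also detects fluorouracil in DNA, so regions called after 5FdUR may hold either base. When dTTP falls and dUTP rises, DNA polymerases insert uracil opposite adenine, and UNG normally removes it by base excision repair.

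To show what such DNA looks like, the middle 300 bases of 2 regions are printed from the plus strand of GRCh38, 5′ to 3′, with CpG dinucleotides in capitals. The first comes from an RTX-only region of at least 5 kb with the highest log2 value, at chr17:60036451-60036750, outside any annotated gene. It is the first by position of 4 members tied at this value, of which the other 3 lie in or across HEATR6. The longest 5FdUR-only region, at chr16:86473951-86474250 in the interval that also holds the forkhead genes FOXF1 and FOXL1, stands beside it as the comparison.
RTX-only region of the highest log2 value: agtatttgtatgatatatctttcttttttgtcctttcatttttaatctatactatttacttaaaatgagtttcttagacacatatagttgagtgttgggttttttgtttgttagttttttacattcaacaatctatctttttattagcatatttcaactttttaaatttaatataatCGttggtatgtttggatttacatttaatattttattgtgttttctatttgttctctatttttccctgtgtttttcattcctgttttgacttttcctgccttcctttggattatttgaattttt
longest 5FdUR-only region: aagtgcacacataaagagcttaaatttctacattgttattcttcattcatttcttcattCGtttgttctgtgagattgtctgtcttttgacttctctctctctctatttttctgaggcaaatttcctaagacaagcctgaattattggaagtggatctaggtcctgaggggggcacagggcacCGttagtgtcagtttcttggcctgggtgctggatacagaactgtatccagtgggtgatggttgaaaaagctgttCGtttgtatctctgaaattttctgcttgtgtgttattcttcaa
The RTX-only stretch held 1 CpG, had a GC content of 24.0% and was rich in thymine, at 55.0% of the printed strand. The whole region of 7800 bp around it had a GC content of 42.2%. The 5FdUR-only stretch held 3 CpG at 40.3% GC. Single stretches stand neither for their own regions nor for the sets, whose base composition is given further on.

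One library stood apart. Replicate 1 of 5FdUR_UGI covered 27.5% of the RTX-only bases with its own regions, whereas the other 5FdUR libraries covered 1.54% (5FdUR_UGI replicate 2), 3.04% (5FdUR_UGI_MMR replicate 1) and 1.45% (5FdUR_UGI_MMR replicate 2). Of its called bases, 49.2% lay in both merged RTX files, against 29.1%, 14.9% and 8.14% in those libraries. It also had 82.5% of its called bases in the merged 5FdUR file of its own condition, against 78.8%, 76.5% and 68.3%. Each library is itself a part of that merged file. Whether this library, labelled 5FdUR_UGI, holds DNA of another sample was not tested, and every 5FdUR mean below includes it unless said otherwise. Counts that order all RTX above all 5FdUR libraries are given with and without it, the latter chosen after seeing the data. The lowest log2 value in a single-library region file ranged from 0.25 to 0.27 for RTX, from 0.13 to 0.25 for 5FdUR and from 0.25 to 0.33 for the non-treated HCT116 libraries. In the merged files it was 0.25 and 0.26 for RTX and 0.18 and 0.14 for 5FdUR, so that absence after 5FdUR was judged at a lower threshold than presence after RTX. At these thresholds each merged drug file covered a similar share of the autosomes, from 18.4% to 18.5%. Presence and absence are thus relative to the signal of each file and not to a common level of uracil. The region files do not hold read counts, so the depth behind each region is unknown here and no counting interval was given.

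The RTX libraries covered most of the RTX-only bases. Replicates 1 and 2 of RTX_UGI covered 90.6% and 94.0%, and those of RTX_UGI_MMR 83.1% and 91.1%, a mean of 89.7% ± 4.67 (SD, n = 4). The 4 5FdUR libraries averaged 8.37% ± 12.8 (SD, n = 4). The difference of the means was 81.4 percentage points, and 87.7 without 5FdUR_UGI replicate 1. All 4 RTX libraries lay far above all 4 5FdUR libraries. At single regions, the covered share was higher in every RTX library than in every 5FdUR library for 18010 of the 30855 members (58.4%), and for 23953 without 5FdUR_UGI replicate 1. Among all 5 kb autosomal windows, 6.03% had this order and 3.54% had the reverse, and without that library 10.2% and 7.60%. As the merged files that define the members were made from the same libraries, nothing is read from this excess.

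Not every member was present in full in each library. In 18969 members (61.5%) each of the 4 RTX libraries covered at least 50% of the bases. In 9448 members (30.6%) no 5FdUR library had a called base, and this rose to 22124 members (71.7%) when 5FdUR_UGI replicate 1 was set aside. Where RTX libraries called RTX-only bases, their regions had a mean log2 value of 0.454 and 0.488 in RTX_UGI and 0.447 and 0.421 in RTX_UGI_MMR. Regions of 5FdUR_UGI replicate 1 at the same bases had 0.373, and those of the other 5FdUR libraries 0.202, 0.263 and 0.182, where the lowest values in their files were 0.14, 0.20 and 0.13.

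RTX-only regions were short pieces with a long tail. Their median length was 2900 bp (2700 bp for 5FdUR-only and 2400 bp for all-drug regions), 9628 of them reached 5 kb, 852 reached 20 kb and 85 reached 50 kb. The 9628 held 68.0% of the member bases. Just outside the length limit lay 1797 intervals of 900 bp, and just inside it 1622 of 1000 bp. Altogether 31125 shorter intervals were dropped. Members were often cut out of larger RTX regions, since 56.7% of the bases in both merged RTX files also lay in a merged 5FdUR file. Of the members, 13421 (43.5%) were a whole interval of bases in both RTX files. A 5FdUR region adjoined both ends of 10089 members and 1 end of 7539, and 13227 (42.9%) touched none.

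The members that touched no 5FdUR region differed little in base composition from those wedged between 5FdUR regions, but more of their bases were genic. GC content was 42.7% in the former and 42.4% in the latter, whereas 79.8% and 65.6% of the bases lay in protein-coding genes. This share was 86.1% in the 3150 members at least 50 kb from any merged 5FdUR region. It also rose with length, from 67.5% in members under 2 kb to 86.5% in those of at least 20 kb.

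The 5 longest members each lay in or across a gene. The longest, chr17:47338201-47477500 (139300 bp), overlapped EFCAB13. The next, chr10:102243601-102379400 (135800 bp), ran over GBF1, which activates the small GTPase Arf at the Golgi, and chr1:35932601-36064000 (131400 bp) over AGO3, an Argonaute protein of small-RNA silencing. The others were chr10:86792101-86908000 in BMPR1A, a type I bone morphogenetic protein receptor, and chr17:67863801-67971300 in BPTF, the largest subunit of the chromatin remodeller NURF. RTX libraries covered 91.9% to 100.0% of each of them. At the BPTF member, the values were 91.9% and 100.0% in RTX_UGI, 97.2% and 100.0% in RTX_UGI_MMR, 0.651% and 0.279% in 5FdUR_UGI and 0.0% in both 5FdUR_UGI_MMR replicates. At the GBF1 member, 5FdUR_UGI replicate 1 reached 28.0% while the other 5FdUR libraries stood at 0.0%. Non-treated HCT116 libraries covered 6.62% to 22.8% of the AGO3 member and 13.6% to 22.3% of the EFCAB13 member, so these regions were not free of signal before treatment.

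The 5 members of at least 5 kb with the highest log2 value all came from 1 stretch of chromosome 17, from position 60032701 to 60086400, around HEATR6. All but 1 carried the same mean of 0.711 over both merged RTX files and that one had 0.672, because a region's value belongs to the whole called region of which these members are pieces. RTX libraries covered 80.4% to 100.0% of them. In 5FdUR_UGI replicate 1 the coverage was 46.2% to 100.0%, and in the other 5FdUR libraries it was 0.0%. At 2 of the 5 the groups of libraries therefore overlapped.

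The non-treated cells, which the rule did not use, showed how far these regions stood out before treatment. WT replicates covered 4.77% and 4.801% of the RTX-only bases, NT_UGI replicates 4.27% and 4.87%, and NT_UGI_MMR replicates 4.38% and 4.67%, while these libraries covered 11.3% to 11.6% of the autosomes. RTX-only regions were thus less covered than the autosomes in 6 of 6 libraries, with a mean log2 ratio of −1.31 ± 0.0669 (SD, n = 6; two-sided exact sign-flip test, p = 0.0313, adjusted p = 0.0313 over 3 tests). This is the smallest p that 6 libraries allow. The same libraries covered 0.39% to 0.838% of the 5FdUR-only bases, and RTX-only regions exceeded these by a log2 ratio of 3.13 ± 0.311 (SD, n = 6; exact sign-flip test, p = 0.0313, adjusted p = 0.0313). The size of this ratio depended on the files that define the sets, at 0.67 with the MMR proficient files alone, 1.95 with the MMR deficient files alone and 4.94 with single libraries in place of merged files. The all-drug regions were covered at 0.76% to 1.09%, and the log2 ratio of RTX-only to all-drug regions was 2.28 ± 0.126 (SD, n = 6; exact sign-flip test, p = 0.0313, adjusted p = 0.0313), or 1.30 with the MMR proficient files alone. Among members, 7759 (25.1%) held a base called in any non-treated HCT116 library, and 868 held one in all 6. Of the 5 kb windows 44.3% held one, but these are longer than the median member of 2900 bp, so that the shares cannot be set against each other. K562 cells covered 4.82% of the RTX-only bases and 11.2% of the autosomes. The former lies within the range of the non-treated HCT116 libraries and the latter just below it.

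These ratios shrank when base composition was taken into account. Non-treated libraries called 75.9% of the bases in windows of 30% to 32% GC but 0.086% at 48% to 50%. When each set was compared with the coverage that its own GC classes would give, the mean log2 ratio was −0.15 ± 0.0291 for RTX-only regions (SD, n = 6), and the difference from 5FdUR-only regions was 0.84 ± 0.221 and from all-drug regions 0.15 ± 0.0724. All 3 held in 6 of 6 libraries (exact sign-flip test, p = 0.0313, adjusted p = 0.0313).

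RTX-only regions had an intermediate GC content of 42.7%, between the autosomes (41.0%) and the 5FdUR-only (47.8%) and all-drug regions (46.8%). They took up 1.011% of the bases in windows of 30% to 32% GC and 9.53% at 48% to 50%, and fell back to 2.52% at 62% to 64%. The 5FdUR-only regions took up 0.0321% in the lowest of these classes and still 14.1% in the highest. To compare libraries, each RTX library's bases outside both merged 5FdUR files were set against each 5FdUR library's bases outside both merged RTX files. GC content was 43.3% and 43.9% in RTX_UGI and 40.9% and 42.8% in RTX_UGI_MMR, against 46.9% and 45.98% in 5FdUR_UGI and 45.1% and 42.3% in 5FdUR_UGI_MMR. The groups overlapped, with a difference of the means of −2.36 percentage points. As the drug libraries chose the members, and as the same merged files of the other drug were removed from every library of a drug, these values are a description with no test.

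RTX-only regions lay mostly in gene bodies. Of their bases 74.1% were in protein-coding genes, against 45.3% of the autosomes, 37.6% of the 5FdUR-only and 39.4% of the all-drug regions. All bases in both merged RTX files, of which the RTX-only regions are a part, stood between, with 57.2% in genes and 7.92% in exons. In the RTX-only regions, introns accounted for 64.4%, exons for 9.68% and coding sequence for 2.98%, while 3.80% of the autosomal bases and 4.36% of the 5FdUR-only bases were exonic. Wholly within genes lay 20122 members (65.2%), and 8565 (27.8%) held no genic base. The gene share was 1.56 times and the exon share 2.27 times that expected from the GC classes of these regions. For all bases in both merged RTX files these ratios were 1.16 and 1.55, and for 5FdUR-only regions 0.723 and 0.668.

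Single libraries are given in the same way, as a description with no test. Of the bases outside the 5FdUR files, 71.8% and 71.5% in RTX_UGI and 74.0% and 74.5% in RTX_UGI_MMR were in protein-coding genes. Of the 5FdUR bases outside the RTX files, 37.9% and 39.1% in 5FdUR_UGI and 42.2% and 37.4% in 5FdUR_UGI_MMR were. The means were 72.9% ± 1.49 and 39.2% ± 2.14 (SD, n = 4 each), with no overlap between the drugs. Exons made up 9.23% ± 0.143 of the RTX bases and 3.85% ± 0.96 of the 5FdUR bases (SD, n = 4 each). Set against the shares expected from GC classes, the difference between the drugs was 0.95 for the gene share and 1.52 for the exon share on the log2 scale. The shares of bases within 1 kb of a gene start overlapped, at 1.02% to 2.42% in the RTX and 1.08% to 3.47% in the 5FdUR libraries.

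The contrast between genes and the DNA outside them was largest, as a ratio, where GC content was low. In windows under 38% GC, RTX-only regions covered 5.68% of genic and 0.9997% of other bases, a ratio of 5.68. At 42% to 46% GC the shares were 11.9% and 4.30%, and at 50% and over they were 8.87% and 4.91%, a ratio of 1.805. The 5FdUR-only regions had the reverse order in every class, with ratios from 0.45 to 0.664.

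Within genes, RTX-only regions were less frequent at the start. Over 11207 protein-coding genes of at least 20 kb, 16.6% of the bases 10 to 20 kb after the start were in RTX-only regions, but 4.55% of those within 1 kb of the start. The share was 13.4% from 50 to 20 kb upstream. It stepped down at the other end of the gene, from 15.7% in the stretch 20 to 10 kb before the end to 12.2% from 20 to 50 kb after it. The 5FdUR-only regions had their highest share at the start, 7.54%, against 4.32% at 10 to 20 kb inside. In the bases that each library called outside the other drug's files, the start was lower than the interior in 4 of 4 RTX libraries. The shares at the start were 11.1% and 13.7% in RTX_UGI and 5.90% and 7.88% in RTX_UGI_MMR, and those of the interior 22.6%, 24.0%, 19.1% and 21.5%. In 4 of 4 5FdUR libraries the start was higher, at 11.9% to 19.5% against 5.57% to 9.89%. Removing the other drug's merged files favours both orders, so these counts are a description with no test. Of all bases in both merged RTX files, with nothing removed, 1.73% lay within 1 kb of a gene start, against 1.27% of the autosomes. Gene starts had a mean GC content of 54.6% and the interior 43.3%, and non-treated libraries covered 1.25% ± 0.129 and 5.70% ± 0.251 of them (SD, n = 6). Within 1 kb of the start of any protein-coding gene, RTX-only regions held 0.735 of the share expected from their GC classes (1.23% against 1.68% of their bases) and 5FdUR-only regions 0.731 (2.23% against 3.04%), so that against base composition both sets lay below expectation by nearly the same ratio. The authors' ratios were smoothed over 5 kb, so that the width of the dip and of members shorter than this is not resolved.

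Promoters were not avoided altogether. Of 20594 RefSeq promoters of protein-coding genes (300 bases each, 250 before and 50 after the start, GRCh38.p14), 5.49% touched an RTX-only and 8.23% a 5FdUR-only region. Among the promoters of genes with at least 50% of the body in RTX-only regions, 30.1% touched one and 0.223% a 5FdUR-only region. The choice of these genes by their RTX-only bodies, which adjoin the promoters, favours this order, so nothing is read from it. The CpG dinucleotide, searched as the letters CG, occurred a median of 25 times in these 2239 promoters, 21 times in promoters of protein-coding genes and 14 times in all 33725 autosomal promoters of the table.

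Genes of intermediate length carried the largest share. RTX-only regions covered 18.9% of the bases of genes from 20 to 50 kb, 16.97% from 50 to 100 kb and 12.0% from 100 to 200 kb. This fell to 3.31% in genes of 200 to 500 kb and 0.465% in the 309 genes of at least 500 kb. In genes under 5 kb the share was 7.57%. For 5FdUR-only regions the range over the same classes was narrower, from 1.66% in the longest to 7.66% in the shortest genes. Of 19111 protein-coding genes, 7045 (36.9%) held at least 1 kb of RTX-only bases and 2124 had at least 50% of the body in them. At least 1 kb of 5FdUR-only bases was found in 3463 genes. Both kinds were present in 567, which are 8.05% of the former and 16.4% of the latter.

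At the level of whole genes, the covered share of the body was higher in every RTX library than in every 5FdUR library in 24.0% of the protein-coding genes, and 7.78% had the reverse order. Without 5FdUR_UGI replicate 1 these shares were 34.5% and 16.6%. The gene with the most RTX-only bases was SKAP1, an adaptor of T-cell receptor signalling, at chr17:48133442-48430275 with 239159 bp or 80.6% of its length. RTX libraries covered 95.9%, 98.3%, 88.1% and 85.2% of it. The 5FdUR libraries covered 25.7%, 4.35%, 1.04% and 0.0%, with 5FdUR_UGI replicate 1 the highest and still far from the RTX range. PDE4B, a cAMP phosphodiesterase of 582066 bp, came second with 178079 bp, only 30.6% of its length. All 20 genes with the most RTX-only bases had the order RTX above 5FdUR, which their choice from the same files favours.

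Among these 20 genes, SMARCC1, a core subunit of the BAF remodeller, had 74.4% of its body in RTX-only regions, BPTF 89.0%, NFAT5, a transcription factor of the osmotic stress response, 95.1%, AGO3 96.3%, and RBM6, an RNA-binding protein, 84.3%. Others serve the centrosome (CEP350, 83.0%), lipid transfer (VPS13D, 47.6%) and translation initiation (EIF2B3, 96.5%). BMPR1A reached 93.2% and SLMAP 88.5%. Further genes were NR6A1 (61.1%), CSTPP1 (67.5%), ZSWIM5 (50.1%), RNF220 (55.5%), GBF1 (99.4%) and the annotated loci ENSG00000283782 (65.4%) and ENSG00000273345 (85.0%), which carry no gene symbol. Overlapping genes share bases, and CDKL3 overlaps the last of these.

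The 10 genes of at least 20 kb with the highest share had nearly their whole body in RTX-only regions. CDKL3, ESPL1, which encodes the protease separase, PCBP2, a poly(C)-binding protein, and the helicase gene RECQL5 stood at 100.0%. RECQL5 (chr17:75626845-75667189) was covered over 100.0% of its length in every RTX library and over at most 3.94% in any 5FdUR library. RAD17 (99.8%), a checkpoint clamp loader, CTR9 (99.7%), a subunit of the PAF1 transcription elongation complex, SUPV3L1 (99.7%), a mitochondrial RNA helicase, SDHB (99.6%), a subunit of succinate dehydrogenase, ZC3H7A (99.4%) and GBF1 (99.4%) followed. RECQL5 was the extreme case, as 5FdUR_UGI replicate 1 covered more of each other gene of the 10. It reached 59.7% of SDHB, 46.6% of ESPL1 and 44.6% of CTR9. The other 5FdUR libraries covered at most 10.3% of any of them.

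The gene lists were read against the 36.9% of all protein-coding genes that held at least 1 kb of RTX-only bases. Of 39 autosomal DNA replication genes, 24 did (61.5%). The median of their RTX-only share was 12.5%, against 0.0% over all genes. RTX libraries all lay above all 5FdUR libraries in 19 of these 39 genes and below them in 0, where the shares for all genes were 24.0% and 7.78%. Without 5FdUR_UGI replicate 1 the counts were 24 and 1, where the shares for all genes were 34.5% and 16.6%. The list's median length was 33.1 kb. Of all genes of 20 to 50 kb, 48.4% held 1 kb and 31.3% had RTX higher, so that part of the excess goes with gene length. RPA2, a subunit of the single-strand binding protein, had 92.9% of its body in RTX-only regions, and POLA2, the second subunit of DNA polymerase alpha, 90.4%. For RFC5, a subunit of the clamp loader, it was 89.3%, and for ORC2, of the origin recognition complex, 80.5%. The libraries overlapped at POLA2, because RTX_UGI_MMR replicate 1 covered 61.5% of it and 5FdUR_UGI replicate 1 covered 62.4%. At RPA2 and RFC5 the latter library covered 66.4% and 49.3%, below every RTX library. MCM5, an MCM helicase subunit, stood at 45.9%. Other subunits of these complexes held no RTX-only base, namely 5 of the 6 listed subunits of the origin recognition complex, 3 of 6 of the MCM helicase (MCM2, MCM3 and MCM4), RFC3 and RPA3.

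Among 26 autosomal uracil and mismatch repair genes, 15 held at least 1 kb (57.7%), and 8 had the RTX libraries above the 5FdUR libraries, with 0 in the reverse order, or 15 and 1 without 5FdUR_UGI replicate 1. Of all genes of 20 to 50 kb, which spans the list's median length, 48.4% held 1 kb and 31.3% had RTX higher. MBD4, a glycosylase acting on uracil and thymine opposite guanine, lay in RTX-only regions over its whole length (100.0%), and all 4 RTX libraries covered it fully. The mismatch repair genes MLH3 and PMS2 had 74.6% and 71.5%, and the glycosylase TDG 45.001%. UNG itself had 6.87%, with 46.002%, 75.5%, 64.6% and 63.3% of its body covered in RTX libraries and 32.6%, 68.8%, 12.03% and 35.7% in 5FdUR libraries, so the drugs overlapped there. Of 30 thymidylate and folate genes, 9 held at least 1 kb, a smaller share than the 36.9% of all protein-coding genes. This share was also below the 48.4% of genes of 20 to 50 kb, the class of the list's median length (22.6 kb). As over all genes, the median gene of this list held no RTX-only base. MTHFD2, a mitochondrial folate enzyme, had 79.2%, SAMHD1, a dNTP hydrolase, 74.4%, and the thymidine kinase TK1 46.4%. At MTHFD2 and TK1 the libraries overlapped, as 5FdUR_UGI replicate 1 covered 95.2% and 93.2% of these genes. In this list 4 genes (13.3%) had the RTX libraries higher and 3 (10%) the 5FdUR libraries, where the shares for all genes were 24.0% and 7.78%. Without 5FdUR_UGI replicate 1 the counts were 8 (26.7%) and 4 (13.3%), where the shares for all genes were 34.5% and 16.6%. The share with RTX higher was thus below that of all genes in both counts.

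The other lists lay on both sides of the 36.9% for all genes. Of 23 colorectal cancer driver genes 11 held at least 1 kb (47.8%), among them ARID1A (88.9%) and ERBB2 (64.2%). This was no higher than the 50.1% of all genes of 50 to 100 kb. The share was 22 of 73 ribosomal protein genes (30.1%), whose median length was 5.33 kb, and 6 of 28 p53 target genes (21.4%), with a median of 18.7 kb. Among all genes, 8.01% of those under 5 kb and 31.0% of those of 5 to 20 kb held 1 kb. Of 24 common fragile site genes 1 did (4.17%), DAB1, with 0.0967% of its length, against 19.4% of all genes of at least 500 kb. The 5FdUR libraries lay above the RTX libraries in 2 of these 24 genes, but in 18 without 5FdUR_UGI replicate 1, where 16.6% of all genes had this order. Fragile site genes had a median length of 1408 kb and a median coverage of 13.04% in non-treated libraries, against 27.9 kb and 0.0% for all genes.

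RTX-only regions were clustered along the genome. Of 2765 autosomal windows of 1 Mb, 1438 held none and 61 had over 40% of their bases in them, and the 276 windows with the most, 10% of all, held 59.5% of the member bases. The densest was chr17:42000001-43000000, with 694300 bp (69.4%) and 44 protein-coding genes, among them STAT5B, STAT3 and ATP6V0A1. RTX_UGI replicates covered 91.4% and 95.6% of this window and RTX_UGI_MMR replicates 59.7% and 84.2%. The 5FdUR_UGI replicates covered 42.5% and 5.16%, and both 5FdUR_UGI_MMR replicates 0.0%. Non-treated HCT116 libraries covered at most 0.17%. The next were chr1:32000001-33000000 (67.5%, with ENSG00000254553, ZBTB8A and KPNA6), chr20:35000001-36000000 (65.3%, with UQCC1, PHF20 and TRPC4AP), chr10:102000001-103000000 (60.1%, with GBF1, SUFU and WBP1L) and chr3:49000001-50000000 (59.9%, with BSN, IHO1 and IP6K1). None of these 5 windows held a 5FdUR-only base. In all 5, 5FdUR_UGI replicate 1 was the highest 5FdUR library, at 24.4% to 42.5%, and RTX_UGI_MMR replicate 1 the lowest RTX library, at 54.8% to 64.6%.

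By chromosome, the RTX-only share of known bases was highest on chromosome 17 (14.4%) and 22 (11.8%) and lowest on 18 (1.18%) and 13 (1.45%). The 5FdUR-only share of the same chromosomes was 4.08%, 7.83%, 3.86% and 4.01%. Chromosomes 17 and 22 had a GC content of 45.3% and 47.0% and chromosomes 18 and 13 of 39.8% and 38.6%. The bases that RTX libraries called outside the 5FdUR files made up 20.5%, 22.5%, 13.9% and 17.9% of chromosome 17, but 2.57%, 2.71%, 2.73% and 2.18% of chromosome 18. On chromosome 17 the bases that 5FdUR libraries called outside the RTX files made up 4.61% to 10.2%, below all RTX libraries. Removing the RTX files favours this order on a chromosome rich in RTX regions. The RTX libraries differed most among themselves on chromosome 19, with 21.3%, 24.8%, 7.57% and 16.9%, where RTX_UGI_MMR replicate 1 was lowest.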

How the data were processed

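The authors aligned reads of enriched and input DNA to GRCh38 with BWA (0.7.17-r1194), removed duplicates with Picard, reads of mapping quality 0 and blacklisted sites, and used deepTools (3.2.1) for normalised coverage smoothed over 5 kb and for log2 ratios. Per the labels, the deposited files list regions above a threshold, with a log2 value per region, for each library and for merged replicates. Each file had its own threshold, tuned to give similar total lengths among files of 1 condition. The unnamed log2 column was taken to be the regional mean. Deposited running numbers (score) were not used.

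Regions were read at 100 bp, and base composition and GENCODE release 44 genes came from GRCh38. Libraries were the replicates. Non-treated libraries were compared by exact sign flips of log2 ratios, at a threshold of 0.05 after Benjamini-Hochberg adjustment over 3 tests, with NumPy and pandas in Python. A planned permutation test of drug libraries is not reported, since removing the other drug's merged files ties each value to its label. The code was tested on simulated data. GC classes were 1% wide over 5 kb windows. Windows needed 50% known bases. Named members were the 5 longest and the 5 of at least 5 kb with the highest log2 value. Named genes were the 20 with the most member bases, the 10 of at least 20 kb with the highest share, and examples from 7 gene lists. Some of these genes and sequences are not reported here. Members, lists and tests were chosen with earlier results of these data known. Input and mock pull-down libraries have no region file here.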

Additional observations from a re-analysis of the deposited data

Results flagged for a closer look

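Over 19 groups of 4 or 6 library values, 2 held a library far from the others, where chance alone flags about 1 group in 20. Replicate 1 of 5FdUR_UGI covered 27.5% of the RTX-only bases, and its gap to the next 5FdUR library made up 0.939 of the range of the 4 libraries. Replicate 2 of NT_UGI covered 0.838% of the 5FdUR-only bases, with a gap of 0.654 of the range of the 6 non-treated HCT116 libraries. Without this library the log2 ratio of RTX-only to 5FdUR-only coverage in non-treated cells was 3.25 in place of 3.13.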

How the results depend on the processing

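The number and length of RTX-only regions depended on the rule. A limit of 5 kb left 9628 regions of 103 Mb, single libraries in place of merged files 17673 of 53.4 Mb, and a distance of at least 5 kb from 5FdUR regions 9302 of 48.3 Mb. A log2 value of at least 0.25 in every merged file gave 185 Mb, the MMR deficient files alone 237 Mb, and the MMR proficient files alone 51590 regions of 387 Mb. Without 5FdUR_UGI replicate 1 among the single libraries, a setting chosen after seeing the data, 120 Mb remained. Over the 7 other rules tried beside that one, the share in protein-coding genes was 62.1% (MMR proficient files alone) to 82.2%.

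The coverage tests in non-treated libraries kept their direction throughout. Leaving out each library gave log2 ratios of −1.33 to −1.29 against the autosomes, 3.07 to 3.25 against 5FdUR-only and 2.23 to 2.30 against all-drug regions, but 5 libraries cannot reach an exact p below 0.0625. The 4 UGI-expressing libraries gave −1.33, 3.12 and 2.31, with an exact p of 0.125, the smallest possible. With the MMR proficient files alone the ratios to 5FdUR-only and all-drug regions were 0.67 and 1.30, with the MMR deficient files alone 1.95 and 1.94, and with single libraries 4.94 and 2.61. The cause was not tested.

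For the drug libraries, leaving out each gave differences of −3.28 to −1.76 percentage points in GC content, 33.2 to 34.8 in gene share and 4.98 to 5.72 in exon share. With a replicate block, pairing the drugs within a line and replicate number, the mean differences were by construction the same, 33.8 and 5.37 points. The labels do not say that a number marks a shared batch, and same-numbered deviations correlated at −0.0425 and −0.0236 over windows. With 2 replicates the other pairing gives the same values with the sign reversed, so these cannot show whether a batch was shared. The paper states that libraries were sequenced at BGI or at Novogene, and the sample titles do not say which library went where. Gene and exon shares differed by 33.1 and 4.72 points in the MMR deficient and by 34.5 and 6.03 in the MMR proficient libraries. Read depth per region is unknown here, and 2 libraries per condition limit the precision.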
